A study of Homo sapiens with 6 samples.

Results

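Colonies of one cell line that carry the same knockdown can still differ from each other. The comparison described here set the 2 libraries of DDX18 knockdown colony 2 against the 2 libraries of DDX18 knockdown colony 1, which are 4 of the 6 libraries of the study. It covered the 13605 genes, of 36932 with a symbol of their own, that had a mean of at least 1 CPM over these 4 libraries. CPM is the read count of a gene scaled to the size of its library, by a method not given in the sources used here. The 2 control libraries were used only to show which colony lay farther from control. All cells were MDA-MB-231, an established human cell line from a triple negative breast tumour, and the study asked how its messenger RNAs change when DDX18 is knocked down. The labels give the groups as control, DDX18 knockdown colony 1 and DDX18 knockdown colony 2, with replicates 1 and 2 of each. They do not say how the knockdown was made, what the control cells received or whether a colony grew from 1 cell. Nothing says whether replicates came from separate cultures, so every p-value reflects only the spread among these libraries, and that spread may be technical. Each colony stands for itself, and nothing here measures how far further colonies would differ.

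DDX18 belongs to the DEAD-box helicases, which remodel RNA, and works in the nucleolus on the large ribosomal subunit. Cytosolic ribosomes are made of ribosomal RNA and many small basic proteins, whose genes are strongly expressed in growing cells and encode short messenger RNAs. The respiratory complexes of mitochondria are built from many small subunits encoded in the nucleus and a few encoded by the mitochondrial genome.

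The genes that differed most between the colonies included several with very short coding sequences. Those of RPS29, a protein of the small ribosomal subunit, and COX8A, a subunit of cytochrome c oxidase, are shown because both mRNAs were among the 15 lowest in colony 2. That of RPS28, another protein of the small subunit, is shown because it has the same length as that of COX8A and its mRNA was higher in colony 2. MT-TS1, a mitochondrial serine transfer RNA, is shown whole as a short RNA that was higher in colony 2. The sequences are from GENCODE release 29 on GRCh38, 5′ to 3′, with the start and stop codons of the coding sequences in capitals.
RPS29: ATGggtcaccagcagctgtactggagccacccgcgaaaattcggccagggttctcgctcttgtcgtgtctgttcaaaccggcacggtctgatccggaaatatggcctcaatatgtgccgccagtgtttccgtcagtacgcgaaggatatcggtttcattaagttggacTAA
COX8A: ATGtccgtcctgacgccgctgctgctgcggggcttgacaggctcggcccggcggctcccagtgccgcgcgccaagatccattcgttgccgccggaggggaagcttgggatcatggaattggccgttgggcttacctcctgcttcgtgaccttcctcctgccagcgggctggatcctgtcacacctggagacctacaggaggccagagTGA
RPS28: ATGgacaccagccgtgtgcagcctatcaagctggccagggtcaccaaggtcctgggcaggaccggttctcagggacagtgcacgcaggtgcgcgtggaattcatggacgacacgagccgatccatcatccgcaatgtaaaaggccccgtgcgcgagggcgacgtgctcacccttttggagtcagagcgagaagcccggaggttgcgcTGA
MT-TS1: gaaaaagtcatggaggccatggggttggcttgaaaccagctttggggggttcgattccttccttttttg

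With its stop codon, the RPS29 coding sequence is 171 nt long and has a GC content of 52.6%. Those of COX8A and RPS28 are both 210 nt long, with 65.2% and 61.9% GC. RPS29 lies on chromosome 14 (chr14:49570984-49599164, minus strand), COX8A on chromosome 11 (chr11:63974607-63976543, plus strand) and RPS28 on chromosome 19 (chr19:8321158-8323340, plus strand). MT-TS1 covers 69 nt of the minus strand of the mitochondrial genome (chrM:7446-7514).

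Judged by the smallest CPM step of each library, its deposited rows held 8843847 to 11902437 reads, and 1 read was worth 0.0815 to 0.108 CPM. The deposited columns summed to 976795 and 975743 CPM in control, 982267 and 984969 in colony 1 and 969799 and 956008 in colony 2, so they were not all on one total. The median absolute log2 difference between the 2 replicates of a group was 0.12 to 0.13 in all 3 groups. On the second principal component, with 12.4% of the variance, colony 1 lay at −9.38 and −14.3 and colony 2 at 13.3 and 10.3. In the 4 knockdown libraries PGR, the progesterone receptor, was at 0, ESR1, the oestrogen receptor, was at or below 0.201 CPM, and VIM, the mesenchymal filament protein vimentin, was at 1739 to 1803 CPM. The leukocyte marker PTPRC was at or below 0.303 CPM there.

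DDX18 itself was low in both colonies. It stood at 78.8 and 91.7 CPM in control, 17.6 and 14.04 in colony 1 and 14.7 and 15.1 in colony 2. The colonies overlapped and both lay far below control. The difference of colony 2 minus colony 1 was −0.07 on the log2(CPM + 1) scale (SE 0.13, adjusted p = 0.876 by limma), and its sign turned to 0.08 without replicate 1 of colony 1.

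Between the colonies, more genes were lower than higher in colony 2, and the lower ones included 37 of 78 cytosolic ribosomal protein genes and 20 of 75 nuclear genes of the respiratory complexes. At a Benjamini-Hochberg adjusted p under 0.05 by limma, colony 2 had 83 higher genes (0.61% of those tested) and 222 lower ones (1.63%), 305 in all (2.24%). These shares are the background against which counts in gene lists are read below. The log2 difference was 1 or more in size in 8 higher and 17 lower genes, 25 in all. The median difference was 0.48 for the higher and −0.41 for the lower genes, against 0.00 for all tested genes. Each of the 305 had both libraries of one colony above both of the other, as did 5982 (44%) of all tested genes. In bulk RNA, fewer cells of a type and less RNA per cell cannot be told apart. The counts leaned on single libraries. Without replicate 2 of colony 1 they were 45 higher and 122 lower, without replicate 1 of colony 2 they were 21 and 116, and without replicate 2 of colony 2 they were 37 and 128. Without replicate 1 or 2 of control, which also sets the shared spread, they were 128 and 311 or 130 and 313. Fitted on the 4 knockdown libraries alone, 130 genes were higher and 305 lower. That fit leaves each difference between the colonies as it was, so directions could not change in it.

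**Figure D1:**
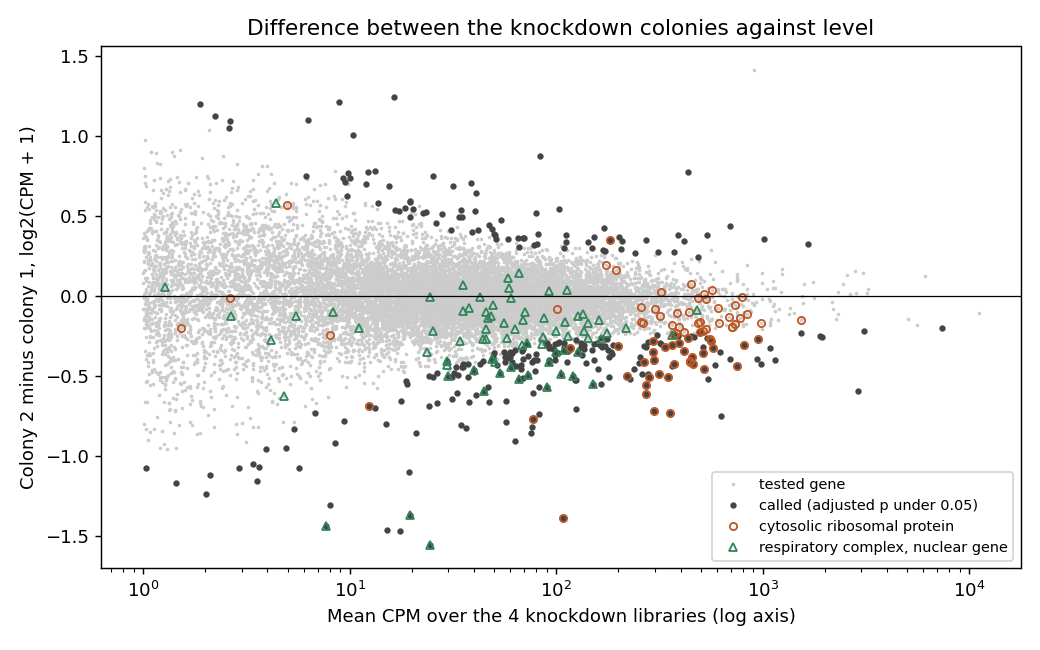
Each point is 1 of 13605 tested genes, with the mean CPM over the 4 knockdown libraries on a log axis and the difference of colony 2 minus colony 1 in log2(CPM + 1). Dark points passed the test, circles are cytosolic ribosomal protein genes and triangles are nuclear genes of the respiratory complexes. Most circles and triangles lie below 0.

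The lowest gene in colony 2 was COX8A, at 31.0 and 29.5 CPM in control, 38.1 and 35.7 in colony 1 and 10.3 and 13.7 in colony 2. Both libraries of colony 2 lay below all other libraries. The level was 3.06-fold lower in colony 2 than in colony 1, a log2 difference of −1.55 (SE 0.13, adjusted p = 1.9e-07 by limma). NME1, a nucleoside diphosphate kinase, stood at 23.8 and 28.9 CPM in control, 25.5 and 26.6 in colony 1 and 6.93 and 11.1 in colony 2 (log2 difference −1.46, SE 0.17, adjusted p = 7.6e-06 by limma). HSPE1, the co-chaperonin of mitochondrial HSP60, stood at 14.3 and 23.6 CPM in control, 23.9 and 21.4 in colony 1 and 6.93 and 8.32 in colony 2 (log2 difference −1.46, SE 0.18, adjusted p = 2.9e-05). Neither gene overlapped between the colonies. Control lay near colony 1 for NME1 and between the colonies or level with colony 1 for HSPE1. COX6A1, also of cytochrome c oxidase, stood at 11.7 and 10.7 CPM in control, 12.1 and 11.2 in colony 1 and 3.10 and 4.32 in colony 2. RPS29 stood at 151 and 148 CPM in control, 169.6 and 142 in colony 1 and 50.9 and 67.9 in colony 2. ATP5MF, a subunit of the mitochondrial ATP synthase, stood at 33.9 and 35.1 CPM in control, 27.7 and 29.4 in colony 1 and 9.70 and 11.2 in colony 2. These 3 genes were 3.14-fold, 2.62-fold and 2.72-fold lower in colony 2 than in colony 1.

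The other genes among the 15 lowest had log2 differences from −1.30 to −0.81. They were NEDD8, a ubiquitin-like modifier, NBL1, a secreted antagonist of bone morphogenetic proteins, TRABD2A, a membrane protease that cleaves Wnt proteins, TMEM258, a subunit of the oligosaccharyltransferase, and ROMO1, a small protein of the inner mitochondrial membrane. The pseudogenes NPM1P27, MTCO1P12 and EEF1A1P5 and the antisense gene CD81-AS1 completed them. ROMO1 stood at 97.8 and 95.7 CPM in control, 101 and 95.5 in colony 1 and 52.2 and 58.3 in colony 2. The same order, with control level with colony 1, held for UBL5, a ubiquitin-like protein of splicing, and SLIRP, which binds mitochondrial mRNAs, both chosen after their values were seen. UBL5 stood at 104 and 105 CPM in control, 103 and 103 in colony 1 and 60.3 and 62.8 in colony 2. SLIRP stood at 63.4 and 74.1, at 67.8 and 76.9, and at 38.6 and 44.4 CPM. All 15 lowest genes kept their call whichever library was left out.

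**Figure D2:**
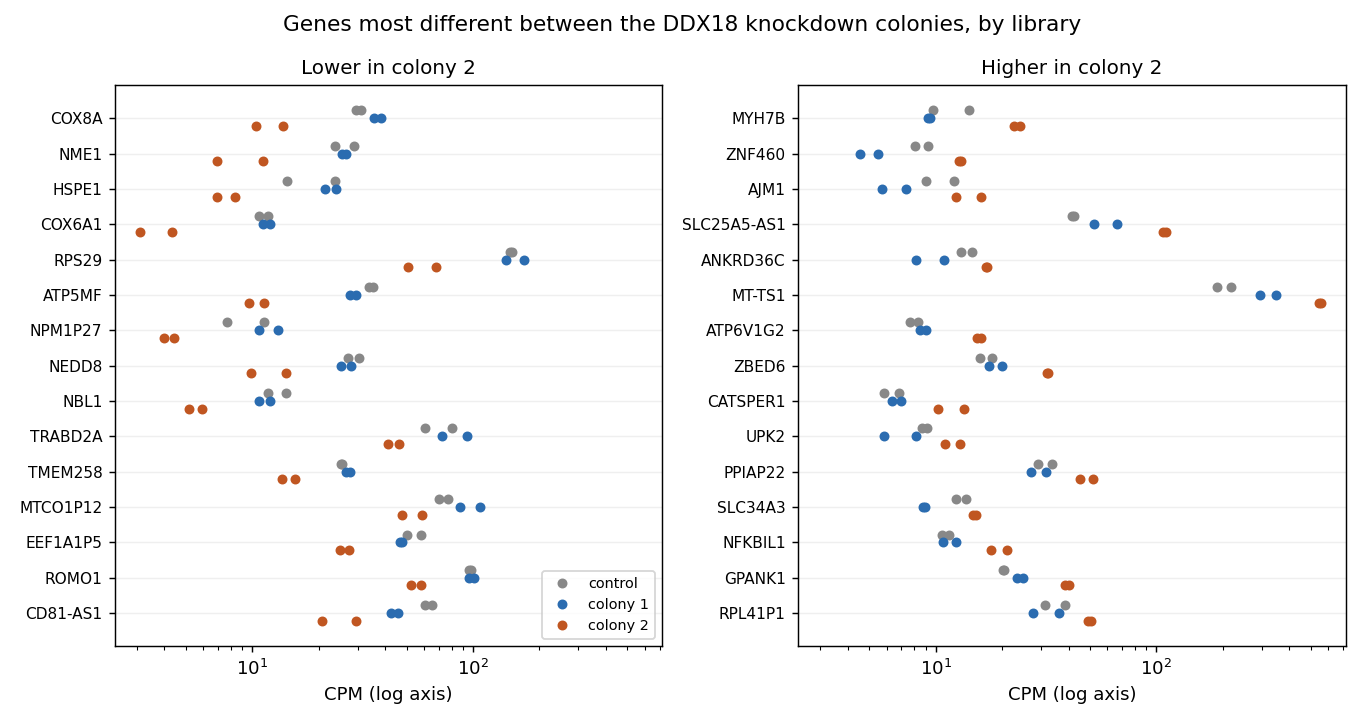
CPM of the 15 lowest (left) and 15 highest (right) genes of colony 2 against colony 1, on log axes, with 1 point for each library and colours for control, colony 1 and colony 2. In every row both points of colony 2 lie on one side of both points of colony 1, which the rule that chose these genes required.

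Exons of several of these genes overlap those of a read-through gene on the same strand, and the way shared reads were counted is not given in the sources used here. NME1 overlaps NME1-NME2, HSPE1 overlaps HSPE1-MOB4 and NEDD8 overlaps NEDD8-MDP1, and all 3 read-through genes were listed at 0 in every library. NME2, the other gene of NME1-NME2, stood at only 1.61 and 1.31 CPM in colony 1 and 2.36 and 2.38 in colony 2 (log2 difference 0.46, adjusted p = 0.453 by limma). HSPD1, which shares exons with HSPE1 on the opposite strand, stood at 397 and 421 CPM in colony 1 and 389 and 408 in colony 2 (log2 difference −0.04). MOB4 stood at 26.2 and 24.3, and at 25.8 and 23.3 CPM. NME2 and HSPD1 were chosen after their values were seen. MDP1, a phosphatase gene beside NEDD8, was listed at 0 in 5 of 6 libraries. ATP5MF overlaps ATP5MF-PTCD1, which was not at 0 and stood at 8.17 and 10.01 CPM in control, 8.95 and 11.9 in colony 1 and 9.53 and 9.08 in colony 2, with overlap between the colonies. NBL1 overlaps MINOS1-NBL1. Other genes among the lowest overlap, on the same strand, exons of genes that are not read-through genes by name. COX8A overlaps AP000721.1, COX6A1 overlaps AL021546.1, RPS29 overlaps the pseudogene RPL32P29 and TMEM258 overlaps MIR611. Levels of these last partners are not given here. The levels of all these lowest genes, COX8A and RPS29 included, are therefore uncertain. Of the 222 lower genes 26.1% overlapped another gene's exons on the same strand, of the 83 higher genes 21.7%, and of all tested genes 15.7%. On the opposite strand the shares were 45.0% of the lower, 50.6% of the higher and 43.6% of all tested genes. TRABD2A, at 72.2 and 93.6 CPM in colony 1 and 46.1 and 41.1 in colony 2, overlaps TMSB10 there. TMSB10, chosen after its values were seen, stood at 1093 and 1042 CPM in colony 1 and 819 and 810 in colony 2. What part such shared reads have in the differences was not tested.

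Among the higher genes, MYH7B, a slow-muscle myosin heavy chain gene, led those of at least 10 CPM. It stood at 14.1 and 9.71 CPM in control, 9.45 and 9.19 in colony 1 and 22.7 and 24.1 in colony 2. Colony 2 was 2.51-fold above colony 1, a log2 difference of 1.24 (SE 0.16, adjusted p = 3.8e-05 by limma), with control between the colonies or level with colony 1. ZNF460, a zinc finger protein, stood at 8.07 and 9.21 CPM in control, 4.52 and 5.45 in colony 1 and 12.7 and 13.0 in colony 2. Here control lay between the colonies without overlap. The 2.57-fold difference between the colonies had a log2 value of 1.21 (SE 0.18, adjusted p = 0.00016). AJM1, SLC25A5-AS1, ANKRD36C, MT-TS1, ATP6V1G2, ZBED6, CATSPER1, UPK2, PPIAP22, SLC34A3, NFKBIL1, GPANK1 and RPL41P1 followed, with log2 differences from 1.01 to 0.64. Of the proteins these encode, ZBED6 is a transcriptional repressor, CATSPER1 a calcium channel of sperm, UPK2 a uroplakin of the bladder lining and SLC34A3 a phosphate transporter.

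These higher genes were less settled than the lowest ones. CATSPER1 and SLC34A3 lost their call without any 1 of the 4 knockdown libraries (adjusted p of up to 0.373 and 0.125). ANKRD36C and UPK2 lost it without replicate 1 of colony 1 or without either library of colony 2 (up to 0.110 and 0.326). NFKBIL1 lost it without replicate 1 of colony 1 or of colony 2 (up to 0.233), and ATP6V1G2 without replicate 2 of colony 1 or either library of colony 2 (up to 0.102). AJM1 lost it without replicate 1 of colony 2 (0.0937) and RPL41P1 without replicate 2 of colony 1 (0.103). ATP6V1G2 and NFKBIL1 overlap each other on opposite strands of chromosome 6, and GPANK1 overlaps CSNK2B there. CSNK2B and DDX39B, both widely expressed genes, were listed at 0 in every library, so reads of this region are uncertain. Exons of AJM1 overlap those of PHPT1, and exons of ZBED6 those of ZC3H11A, on the same strand. MYH7B overlaps TRPC4AP on the opposite strand. TRPC4AP, chosen after its values were seen, stood at 218 and 206 CPM in colony 1 and 185 and 182 in colony 2.

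The cytosolic ribosome held the largest block of lower genes. Of 78 tested ribosomal protein genes 37 were lower in colony 2 and 1 was higher, or 48.7% called against 2.24% of all tested genes. That background was not matched for level, and small differences pass more easily in strongly expressed genes. The SE was 0.06 for RPL37, at a mean of 442 CPM in colony 1, and 0.26 for MRPL12, at 5.19 CPM. With a filter of 10 CPM, 37 ribosomal protein genes were again lower, and 294 of 10027 tested genes were called. The large subunit had 21 of 47 genes lower and the small subunit 16 of 31 lower and 1 higher. The median log2 difference was −0.23 in each subunit, and 70 of the 78 differences were below 0. With trends on transcript length and GC content removed, both medians were −0.15. That length is of 1 representative transcript per gene, which for some of these genes was far longer than the coding sequence. Summed over both subunits, the level was 34438 and 35504 CPM in control, 35769.7 and 36058 in colony 1 and 30114 and 31283 in colony 2. The sums did not overlap, and both of colony 2 were below control. As a share of each column's total, they were 3.53% and 3.64%, 3.64% and 3.66%, and 3.11% and 3.27%. The count of lower ribosomal protein genes was 23 without replicate 1 of colony 2 and 27 to 40 without any other library.

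In the large subunit the lowest genes were RPL37 and RPL37A, small zinc-binding proteins. RPL37 stood at 495 and 479.6 CPM in control, 451 and 433 in colony 1 and 255 and 278 in colony 2, a log2 difference of −0.73 (SE 0.06, adjusted p = 1.9e-07 by limma). RPL37A stood at 388 and 383, at 374 and 363, and at 208 and 241 CPM, a log2 difference of −0.72 (SE 0.07). In both genes colony 1 lay just below control and colony 2 far below it. RPL41, whose protein is among the shortest known in human cells and which was chosen after its values were seen, stood at 273 and 278 CPM in control, 245 and 269.9 in colony 1 and 173 and 191 in colony 2 (log2 difference −0.50, adjusted p = 8.9e-05). In the small subunit RPS29 was followed by FAU, which encodes a ubiquitin-like protein fused to RPS30. FAU stood at 101 and 104 CPM in control, 95.2 and 100.1 in colony 1 and 49.4 and 65.7 in colony 2 (log2 difference −0.77, SE 0.10). RPS28 went the other way, at 176 and 161 CPM in control, 169.8 and 149.6 in colony 1 and 197 and 209.6 in colony 2. Its difference was 0.35 (SE 0.08, adjusted p = 0.011 by limma), and its call was lost without replicate 2 of colony 1 (adjusted p = 0.216) or replicate 2 of colony 2 (0.154). Exons of RPS28 overlap those of AC010323.1, KANK3 and NDUFA7 on the opposite strand. COX8A and RPS28, printed above with coding sequences of one length, differed in opposite directions. RPS28 was picked for its direction, so this pair says nothing on the part of length.

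Ribosome biogenesis factors were called about as often as all tested genes. Of 84 tested ribosome biogenesis factors, the group DDX18 belongs to, 2 were lower and none higher, a share of 2.38% called beside 2.24% of all tested genes. Their median log2 difference was −0.11, and it was −0.04 without replicate 2 of colony 1 or replicate 1 of colony 2 and −0.17 without replicate 1 of colony 1. The 2 were DKC1, the pseudouridine synthase of small nucleolar RNPs, and EBNA1BP2, an assembly factor of the large subunit. DKC1 stood at 99.0 and 111 CPM in control, 139 and 163 in colony 1 and 112 and 121 in colony 2. EBNA1BP2 stood at 113 and 121, at 153 and 179, and at 123 and 139 CPM. In both, colony 1 was the farther from control. Both lost the call without replicate 2 of colony 1 (adjusted p = 0.308 and 0.361) and without replicate 1 of colony 2 (0.204 and 0.346). Of 73 mitochondrial ribosomal protein genes 6 were lower and none higher (8.22% called). The median was −0.15, and −0.09 both without replicate 1 of colony 2 and with length and GC trends removed. The lowest were MRPL12, at 1.22 and 2.92 CPM in colony 2 and 4.93 and 5.45 in colony 1, and MRPS6, at 27.2 and 28.2 CPM against 39.1 and 39.6. Their adjusted p rose to 0.123 and 0.0735 without replicate 2 of colony 1 and to 0.398 and 0.101 without replicate 1 of colony 2.

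**Figure D3:**
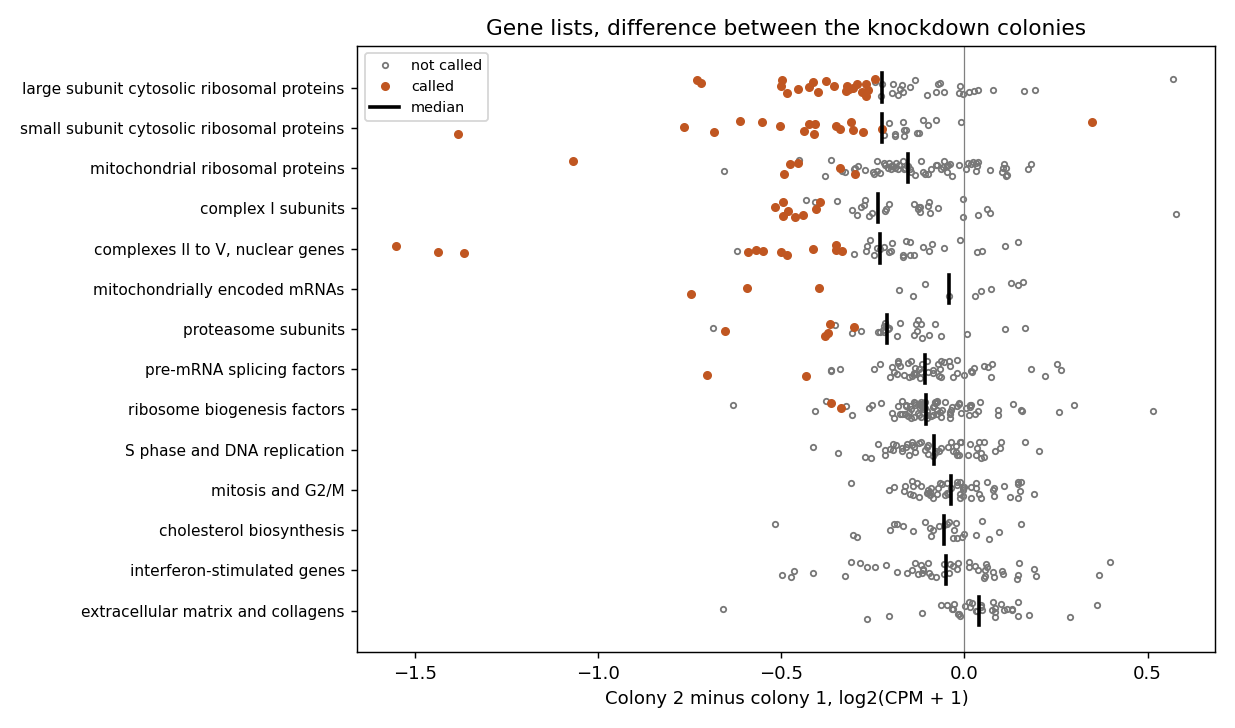
Difference of colony 2 minus colony 1 in log2(CPM + 1) for each tested gene of 14 lists, with filled points for called genes and a black bar at the median of each list. Called genes lie to the left in the ribosomal protein and respiratory lists, and the DNA replication, mitosis, cholesterol, interferon and matrix lists hold no called gene.

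The respiratory complexes held the next block. Of 75 tested nuclear genes 20 were lower and none higher (26.7% called). For complex I, which takes electrons from NADH, 8 of 36 were lower, with a median log2 difference of −0.24, and for complexes II to V 12 of 39, with a median of −0.23. Summed over all these genes, the level was 6385 and 6664 CPM in control, 6320.2 and 6340.2 in colony 1 and 5219 and 5479 in colony 2. Colony 1 lay just below control and colony 2 below both. As a share of the column total, colony 1 was at 0.643% and 0.644% and colony 2 at 0.538% and 0.573%. The count of lower genes was 13 without replicate 1 of colony 2 and 15 to 28 without any other library. In complex I the lowest were NDUFA12 and NDUFS5, both accessory subunits. NDUFA12 stood at 76.9 and 92.8 CPM in control, 76.0 and 79.8 in colony 1 and 54.8 and 53.5 in colony 2. Its log2 difference was −0.52 (SE 0.09, adjusted p = 0.0012 by limma). NDUFS5 stood at 151 and 168, at 141 and 142, and at 102 and 98.0 CPM, and its log2 difference was −0.50 (SE 0.08). Beside COX8A, COX6A1 and ATP5MF, ATP5F1E, the epsilon subunit of ATP synthase chosen after its values were seen, stood at 180.0 and 184 CPM in control, 197 and 162 in colony 1 and 114 and 130.2 in colony 2.

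The mitochondrial genome itself gave a mixed picture. Of 13 mitochondrially encoded mRNAs 3 were lower and none higher (23.1% called, beside 2.24% of all tested genes). Their median log2 difference of −0.04 had no stable sign, at 0.06 without replicate 1 of colony 1, −0.15 without replicate 2 of colony 1, −0.10 and −0.11 without replicate 1 or 2 of colony 2, and 0.05 with length and GC trends removed. MT-ND3, of complex I, stood at 645 and 670.3 CPM in control, 832 and 746 in colony 1 and 439.7 and 501 in colony 2, a log2 difference of −0.75 (SE 0.07, adjusted p = 3.7e-07 by limma). MT-ATP6, of ATP synthase, stood at 2713 and 2905 CPM in control, 3663 and 3267 in colony 1 and 2318 and 2267 in colony 2, a log2 difference of −0.59 (SE 0.06, adjusted p = 5.3e-07). In both mRNAs control lay between the colonies. MT-ND6, the mRNA of the light strand, chosen after its values were seen, stood at 1429 and 1469 CPM in control, 1280.2 and 1334 in colony 1 and 1029 and 959 in colony 2. MT-CO1, of cytochrome c oxidase, did not pass the test between the colonies, at 12173 and 10885 CPM in colony 1 and 10642 and 10734 in colony 2 (log2 difference −0.11, adjusted p = 0.377 by limma).

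MT-TS1, which lies next to MT-CO1 on the opposite strand, was higher in colony 2. It stood at 188 and 218 CPM in control, 348 and 295 in colony 1 and 555 and 545 in colony 2. The groups did not overlap, and control was the lowest. The log2 difference between the colonies was 0.78 (SE 0.08, adjusted p = 1.2e-06 by limma). Whether the counting kept the strands apart is not given in the sources used here, so reads of neighbouring mitochondrial RNAs cannot be told from those of the transfer RNA. The mitochondrial ribosomal RNA MT-RNR1, chosen after its values were seen, stood at 640 and 689 CPM in control, 577 and 594 in colony 1 and 695 and 902 in colony 2. Its adjusted p was 0.031 by limma, and its call was lost without any library other than replicate 1 of colony 2. The call was also lost with median centring, with no filter and on the 4 knockdown libraries alone (0.0572 to 0.0622). The other ribosomal RNA, MT-RNR2, stood at 5964 and 5716 CPM in colony 1 and 6368 and 6380 in colony 2, and did not pass the test (log2 difference 0.13, adjusted p = 0.200). Of 9 mitochondrial transfer and ribosomal RNA genes, a group chosen after values were seen, 6 differences were above 0 and 3 below.

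Among protein turnover and splicing genes, 5 of 32 proteasome subunits were lower in colony 2 (median log2 difference −0.21) and none higher. That is 15.6% called, beside 2.24% of all tested genes. SEM1, a small subunit of the proteasome lid, stood at 60.3 and 64.6 CPM in control, 70.3 and 70.2 in colony 1 and 46.7 and 41.9 in colony 2 (log2 difference −0.65, SE 0.09). PSMA7, a core subunit, stood at 248 and 259.7, at 271 and 308, and at 223 and 221 CPM. In both, control lay between the colonies. The call of PSMA7 was lost without replicate 2 of colony 1 (adjusted p = 0.0959). Of 54 splicing factors 2 were lower (3.70% called), both core proteins of the spliceosomal snRNPs. SNRPD2 stood at 114 and 140.3 CPM in control, 144 and 163 in colony 1 and 90.7 and 97.4 in colony 2 (log2 difference −0.70, SE 0.09, adjusted p = 3.3e-05 by limma). SNRPG stood at 60.5 and 58.5 CPM in colony 1 and 40.6 and 47.3 in colony 2, and lost its call without replicate 1 or 2 of colony 1 (adjusted p = 0.130 and 0.0852) or replicate 1 of colony 2 (0.333).

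Nuclear and small nucleolar host RNAs moved in both directions. Of 22 tested, 2 were higher and 4 lower (27.3% called, beside 2.24% of all tested genes). NEAT1, the scaffold RNA of paraspeckles, stood at 1699 and 1522 CPM in control, 957 and 829 in colony 1 and 1152 and 1128 in colony 2. KCNQ1OT1, the antisense RNA of an imprinted domain, stood at 27.5 and 24.1, at 16.9 and 15.2, and at 23.1 and 22.8 CPM. Colony 2 lay between colony 1 and control in both. NEAT1 lost its call without replicate 2 of colony 1 (adjusted p = 0.0570), and KCNQ1OT1 without any 1 of the knockdown libraries (0.0616 to 0.275) and after removal of length and GC trends (0.699). MALAT1, a nuclear RNA of speckles chosen after its values were seen, had the largest positive log2 difference of all tested genes but did not pass the test. It stood at 609 and 576 CPM in control, 599 and 399 in colony 1 and 1140.0 and 1491 in colony 2. The log2 difference was 1.41 (SE 0.27, adjusted p = 0.171 by limma). Its replicates lay far apart for its level, and with a spread not made robust its adjusted p was 1.8e-07. Without replicate 1 or 2 of colony 1 the adjusted p was 0.00022 or 0.010. Among the lower genes, SNHG8, a host gene of a small nucleolar RNA, stood at 25.5 and 28.8 CPM in control, 39.7 and 40.8 in colony 1 and 24.3 and 28.1 in colony 2. SNHG19, another host gene, stood at 6.44 and 6.31, at 4.12 and 4.44, and at 1.06 and 2.05 CPM. SNHG8 lost its call without replicate 1 of colony 2 (adjusted p = 0.0993), and so did SNHG19 (0.226), which also lost it without replicate 2 of colony 1 (0.0683).

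Antisense genes and pseudogenes had called members in both directions, and their reads can come from the partner gene. Of 503 antisense genes 8 were higher and 8 lower (3.18% called), and of 406 pseudogenes 6 were higher and 11 lower (4.19%). Of all tested genes 2.24% were called. SLC25A5-AS1 stood at 41.4 and 42.2 CPM in control, 66.0 and 52.2 in colony 1 and 107 and 110.5 in colony 2 (log2 difference 0.88, adjusted p = 4.5e-06 by limma). Its partner SLC25A5, an ADP/ATP carrier chosen after its values were seen, did not pass the test, at 353 and 379.6 CPM in colony 1 and 318 and 357 in colony 2. CD81-AS1 and CD81, a tetraspanin, were both lower in colony 2, with log2 differences of −0.81 and −0.45. Pseudogenes likewise lay with or against their parent genes. EEF1A1P5 had a log2 difference of −0.82 beside −0.20 for EEF1A1, the translation elongation factor, whose own call was lost without replicate 1 or 2 of colony 2 (adjusted p = 0.145 and 0.264). RPL41P1 had 0.64 beside −0.50 for RPL41, and PPIAP22 had 0.71 beside 0.03 for PPIA, cyclophilin A.

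No gene was called in 17 pathway lists with tested genes, among them some of those on cell division, stress, lipids and signalling. None passed among 54 of DNA replication, 55 of mitosis, 50 of DNA damage repair, 28 p53 targets, 50 interferon-stimulated genes, 32 of the ATF4 response, 26 of the NRF2 response or 27 of cholesterol synthesis. The same held for 23 of fatty acid synthesis, 36 of extracellular matrix, 27 integrins and adhesion genes, 23 matrix proteases, 9 regulators of epithelial-mesenchymal transition, 25 TGF-beta targets, 27 of ERK output, 26 receptor tyrosine kinases and 38 of autophagy. Median log2 differences of these 17 lists lay between −0.08 and 0.04. Of the 547 different genes on them, 59 had an unadjusted p under 0.05 by limma, 16 higher and 43 lower in colony 2, or 10.8% against 13.7% of all tested genes. No call does not show that the colonies were alike in these genes. None of 26 cancer-testis genes reached the level for testing.

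The remaining lists had 1 to 3 called members each. These were 2.33% to 16.7% of a list's tested genes, beside 2.24% of all tested genes. Of 18 histone genes 2 were lower, among them H2AZ1, a variant of histone H2A, at 189 and 219 CPM in control, 282 and 291 in colony 1 and 204 and 224 in colony 2. Its call was lost without replicate 1 of colony 2 (adjusted p = 0.0550). Of 19 heat shock genes HSPE1 and HSP90AB1 were lower. Of 23 antigen presentation genes TAPBP was higher and 2 were lower, one of them HLA-C, and of 12 imprinted genes KCNQ1OT1 was higher and GNAS, the stimulatory G protein subunit, lower. GNAS stood at 1045 and 1012 CPM in control, 1122 and 1122 in colony 1 and 852 and 825 in colony 2, with no overlap between the colonies. PTPN14, a phosphatase that restrains YAP, was the one called gene of 25 YAP/TAZ targets, at 221 and 206 CPM in control, 329.7 and 347 in colony 1 and 441 and 439.5 in colony 2. MT2A was the one of 6 metallothioneins, at 255 and 257, at 184 and 168, and at 216 and 240.2 CPM, and lost its call without replicate 2 of colony 1 (adjusted p = 0.0757) or of colony 2 (0.130). XIAP, an inhibitor of caspases, was higher among 30 apoptosis regulators. Single lower genes were IL32 of 25 inflammatory genes, PDIA6 of 22 endoplasmic reticulum chaperones, the glycolytic enzyme ENO1 of 36 hypoxia and glycolysis genes, KRT10 of 23 keratin and junction genes, and DDX41 of 43 other DEAD-box and DEAH-box helicases and of 38 R-loop factors. HSP90AB1, TAPBP, HLA-C, XIAP, IL32, PDIA6, ENO1 and DDX41 each lost their call when single knockdown libraries were left out, with adjusted p of up to 0.233, 0.449, 0.328, 0.318, 0.221, 0.284, 0.328 and 0.315. DDX41 kept its call in 5 of 15 alternatives, and lost it also with either other pseudocount, no filter, median centring and a spread not made robust (0.0504 to 0.0818). TAPBP lost it also with either other pseudocount and the filter of 10 CPM (0.0505 to 0.0570).

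Of the cell type markers, 2 of 14 for MDA-MB-231 were lower in colony 2, namely LGALS1, or galectin 1, and ANXA1, or annexin A1. LGALS1 stood at 679 and 682 CPM in control, 615 and 660.0 in colony 1 and 441 and 448 in colony 2. ANXA1 stood at 766 and 825, at 721 and 670.3, and at 570.0 and 521 CPM, and lost its call without replicate 2 of colony 2 (adjusted p = 0.0888). The summed MDA-MB-231 markers overlapped between the colonies, at 10674 to 11639 CPM in colony 1 and 10463 to 11638 in colony 2. Of 5 keratinocyte and basal markers KRT10 was lower, at 45.8 and 47.6 CPM in colony 1 and 27.5 and 31.0 in colony 2, beside 26.8 and 29.5 in control. KRT5 and KRT1, which define those cells, were at 0 in all 4 knockdown libraries. No call was made among 14 luminal, 3 leukocyte, 2 endothelial, 7 fibroblast and 4 HEK293 markers. Of these 29 genes, counted once each, 4 had an unadjusted p under 0.05 by limma, 3 higher and 1 lower, or 13.8%, near the 13.7% of all tested genes. The summed HEK293 markers were 51.2 to 57.9 CPM in colony 1 and 63.3 to 65.3 in colony 2, and 6 of 11 were at 0 in all 4 libraries.

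The difference between the colonies moved with coding length. Protein-coding genes were put into 10 length groups of near equal size by the coding length of a representative GENCODE transcript. In the group of shortest genes, of 72 to 549 nt, 111 of 1252 were lower in colony 2 and 8 higher. In the group of longest genes, of 3534 nt and more, 1 of 1228 was lower and 26 were higher. The median log2 difference went from −0.09 in the shortest to 0.08 in the longest group. Against control, the shortest group had medians of 0.05 in colony 1 and −0.04 in colony 2, and the longest −0.06 and 0.03. KMT2D, a very large histone methyltransferase gene chosen after its values were seen, stood at 173 and 154 CPM in control, 139 and 153 in colony 1 and 193 and 198 in colony 2.

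**Figure D4:**
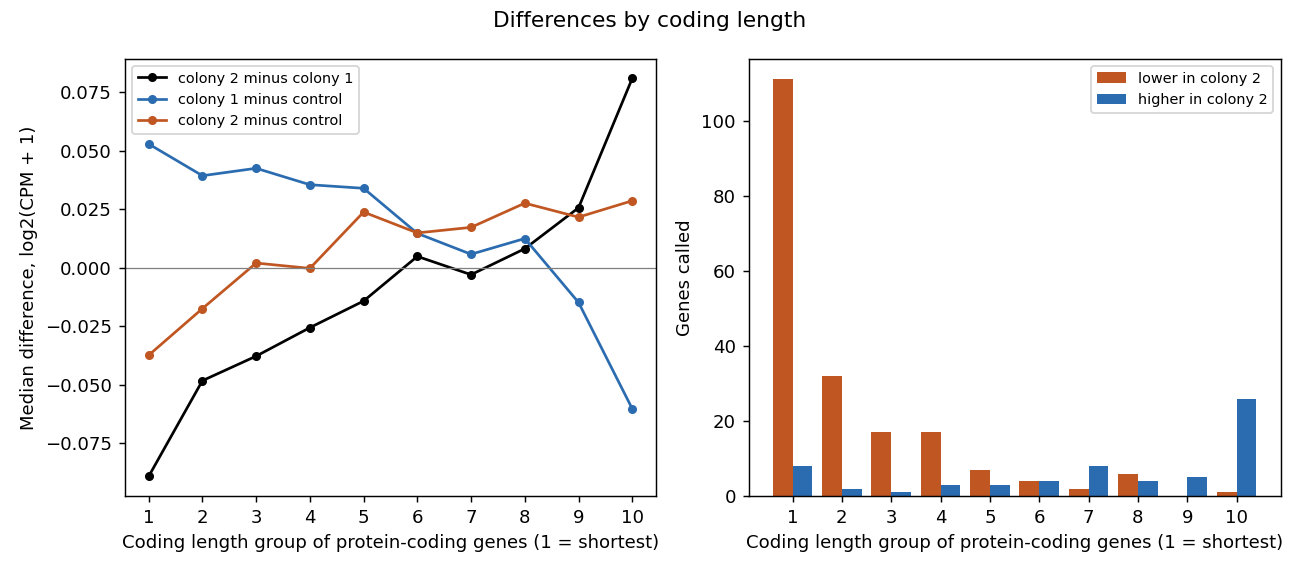
Left, median difference in log2(CPM + 1) for 10 groups of the tested protein-coding genes by coding length, in 3 contrasts. Right, number of genes called lower and higher in colony 2 in each group. The contrast of the colonies runs from −0.09 in the shortest to 0.08 in the longest group, and 111 of the lower genes are in the shortest.

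Short ribosomal and respiratory genes lay below other short genes. Under 600 nt of coding length, the median log2 difference was −0.26 for 56 cytosolic ribosomal protein genes, −0.25 for 55 respiratory genes, −0.17 for 38 mitochondrial ribosomal protein genes and −0.07 for 1365 other genes. The lower genes numbered 30, 20, 4 and 67 among these. At 600 nt or more, 7 of 22 cytosolic ribosomal protein genes were lower (median −0.19), none of 20 respiratory genes (median −0.21) and 67 of 10701 other genes (median 0.00). With trends on transcript length and GC content removed from each library, 61 genes were higher and 143 lower, among them 25 cytosolic ribosomal protein and 15 respiratory genes. All 305 genes kept their direction in that fit and 180 kept their call. The 15 lowest and 15 highest genes kept theirs. KMT2D did not (adjusted p = 0.111), nor did MRPS6, EBNA1BP2, SNRPG, KCNQ1OT1, EEF1A1, HSP90AB1, HLA-C, XIAP, IL32, PDIA6, ENO1 and DDX41 (0.0526 to 0.699). The removed trend was on the length of 1 representative transcript per gene, while the groups above were by coding length. For RPL37 and RPL37A that transcript was 7686 and 3647 nt long, beside 291 and 276 nt of coding length. Such genes were treated as long ones, so what is left after removal cannot be read as free of length. What sets the relation to length was not tested.

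Set against control, colony 2 was the farther colony for most of the lower genes. Of the 222 lower genes colony 2 lay farther from control in 165 (74.3%), and of the 83 higher genes in 52 (62.7%), against 50.9% of all tested genes. Both contrasts share the control libraries, so their values are given side by side. Relative to control, the lower genes had a median log2 difference of 0.07 in colony 1 and −0.37 in colony 2. The higher genes had −0.15 in colony 1 and 0.31 in colony 2. The mean of control lay between those of the colonies in 123 of the lower genes (55.4%) and 45 of the higher genes (54.2%), against 16.2% of all tested genes. Choosing genes by a difference between the colonies in itself raises that share. By limma 5320 genes were called in colony 1 against control (39.1%) and 5460 in colony 2 (40.1%). In cytosolic ribosomal protein genes the medians were 0.04 in colony 1 and −0.17 in colony 2, and in nuclear respiratory genes −0.04 and −0.31.

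**Figure D5:**
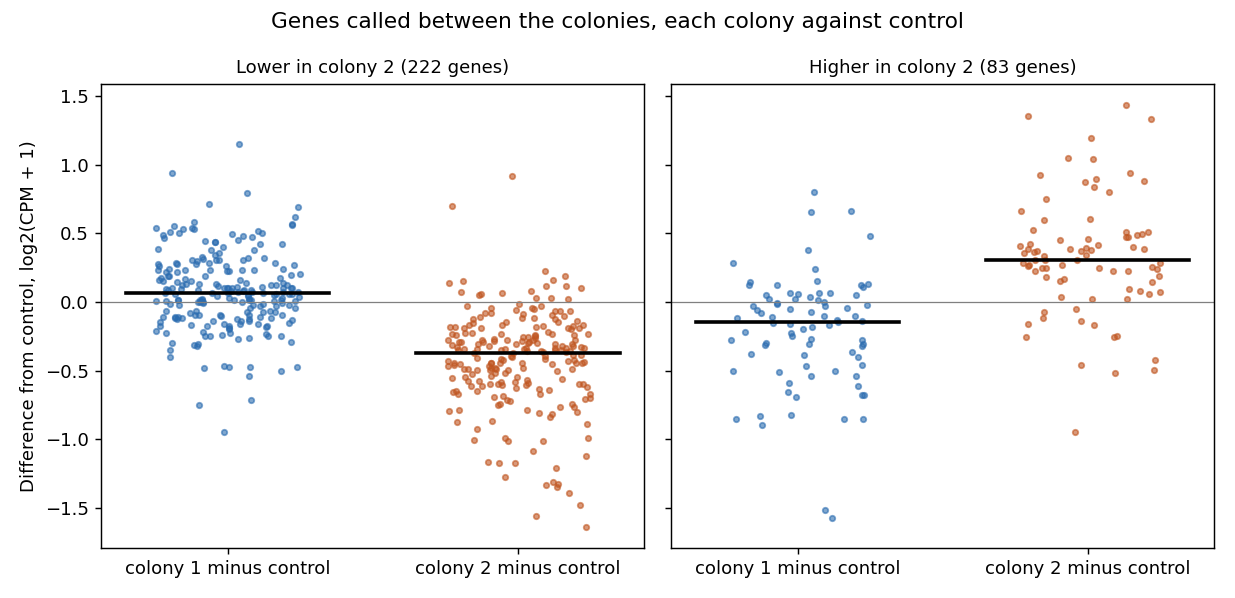
Difference from control in log2(CPM + 1) of each gene called between the colonies, for colony 1 and for colony 2, with black bars at the medians. The 222 genes lower in colony 2 (left) have medians of 0.07 and −0.37, and the 83 higher genes (right) of −0.15 and 0.31.

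Chromosomes had medians near 0. Medians of the log2 difference ran from −0.03 on chromosome 20 to 0.04 for the 22 mitochondrial genes. Of 12426 windows of 50 neighbouring tested genes, 55 had an absolute median above 0.1. The lowest was on chromosome 7 from GNG11 to LAMTOR4 (−0.11), with ATP5MF and SEM1 its called genes. The highest was on chromosome 19 from ZNF506 to CEBPG (0.14), a region rich in zinc finger genes. Its called gene was ZNF91, a repressor of retrotransposons, at 47.3 and 43.6 CPM in control, 28.6 and 27.5 in colony 1 and 42.2 and 40.2 in colony 2, which lost its call without replicate 1 of colony 2 (adjusted p = 0.0733). Over the genome, 410 genes with a ZNF number, a group chosen after values were seen, had a median of 0.09. Of these 4 were called higher and none lower, or 0.98%. Of all tested genes 0.61% were called higher and 2.24% in either direction. Differences were above 0 in 289 of the 410 and below 0 in 121, beside 6656 and 6949 of all tested genes.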

How the data were processed

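RNA of MDA-MB-231 cells was made into mRNA libraries with random primers, per the labels' protocols. The submitters' processing notes name Trim Galore, HISAT2 and the builds hg38 and mm10. How reads were counted and scaled, and with which annotation and strand setting, is not given in the sources used here. The authors deposited CPM for 52142 rows. The 15200 without a symbol (2.50% to 2.62% of CPM) and 10 sharing 5 symbols were left out. All values were whole multiples of a library's smallest step within 1e-06.

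The planned count tests gave way to the branch for CPM: log2(CPM + 1) of all 6 libraries, limma-trend, 1 robust spread for all 3 groups, no covariates, two-sided tests and a threshold of 0.05 on Benjamini-Hochberg adjusted p. Adding 1 CPM shrinks differences of weak genes. Coding lengths and positions are from GENCODE 29, which held 36858 of the 36932 symbols.

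Named genes are DDX18, the 15 highest and 15 lowest called genes (at least 10 CPM in the higher colony, libraries separate, no clone names), the 2 most different called members of each of 41 pathway and 7 cell type lists, with the largest in the other direction, and called genes of the extreme windows. Members, lists and rules were chosen with earlier results of these data known. Not every gene the rule takes is described. R 4.3.3, limma 3.58.1, statmod 1.5.0, Python 3.11.15 and pandas 2.3.3 were used, and the test was first tried on simulated data.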

Additional observations from a re-analysis of the deposited data

Results flagged for a closer look

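In 7 named genes the colonies lay on opposite sides of control, each contrast with control passed the test, and the colonies differed from each other by limma. Of these genes, 5 were above control in colony 1 and below it in colony 2. Their log2 differences of colony 2 minus colony 1 were −0.75 for MT-ND3, −0.59 for MT-ATP6, −0.85 for the pseudogene MTCO1P12, −0.70 for SNRPD2 and −0.38 for PSMA7. MTCO1P12 is a nuclear copy of the mitochondrial MT-CO1, and its reads may come from either. The other 2 were below control in colony 1 and above it in colony 2. ZNF460 differed by 1.21 between the colonies, and MAVS, the mitochondrial adaptor of antiviral RNA sensing chosen after its values were seen, by 0.52. MAVS stood at 86.6 and 72.4 CPM in control, 67.3 and 63.6 in colony 1 and 94.8 and 94.0 in colony 2.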

How the results depend on the processing

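Results were recomputed under 15 alternatives, or under 14 for named genes and the leukocyte markers that the filter of 10 CPM left out. Counts of genes with an absolute log2 difference of at least 1 were 25 as reported, 8 with a filter of 10 CPM and 5 with a pseudocount of 5 CPM. Lower genes numbered 143 with length and GC trends removed, and higher genes 130 on the 4 knockdown libraries alone. With the replicate number as a block, 360 genes were higher and 670 lower, 38 of them respiratory. The DDX18 difference stayed at −0.07 in that paired fit, since a balanced block cannot change it. Among the 17 pathway lists with no called gene, 11 genes were then higher and 23 lower, 6.22% of 547 genes beside 7.57% of all tested. Deviations of samples with the same number correlated, over genes, at 0.156 between the colonies and at 0.123 and 0.130 between control and colony 1 or 2. The third principal component held replicate 1 of each group at −12.1 to −5.43 and replicate 2 at 5.69 to 10.1. The labels do not say what a number shares, and with 2 samples a group this is a hint from the data, so the reported counts are without the block. With 1 library left out, higher genes numbered 21 to 130, lower genes 116 to 313, lower cytosolic ribosomal protein genes 23 to 40 and lower respiratory genes 13 to 28, and DDX18 differed by −0.226 to 0.0800. Over the same fits the differences of HSPD1 (−0.0813 to 0.00319), ATP5MF-PTCD1 (−0.326 to 0.0505), PPIA (−0.0365 to 0.0875) and MT-CO3 (−0.0615 to 0.153) changed sign, none of them called. Of 84 called named genes 47 kept their call under every alternative, 36 lost it without some library and 17 under another setting, with none reversed. Fits that change only the spread, the block, the filter or the controls leave each difference as it was, so no sign could turn there. Fewer genes tested or fewer libraries come with the filter and with leaving out a library. For the other moved counts the cause was not tested. The planned edgeR and DESeq2 tests and TMM factors were not run. The deposited unit was CPM, and although values were whole multiples of a step, that step lay close to 0.1 in 3 libraries, so they were not taken as read counts. With 2 libraries a group, 1 library decides many calls of small size.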
